A study of Mus musculus with 8 samples.

Results

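Lyz1, Lyz2, Mmp7, Ang4, Itln1 and Wnt3 encode 6 products of Paneth cells other than the defensins. Paneth cells sit at the base of the small-intestinal crypt, between the stem cells, and release granules that hold antimicrobial proteins. The 6 genes were found in the expression tables by their Ensembl identifiers and by the exon coordinates of GRCm38, and 5 of the 6 had an entry, among 14223 genes with a value. RNA sequencing was performed on mouse crypt organoids, epithelial cultures grown in Matrigel from isolated small-intestinal crypts, with 4 WT and 4 MG53-TG samples. MG53-TG marks organoids of mice with a transgene that overexpresses MG53 throughout the body, a TRIM family protein of membrane repair encoded by Trim72, and WT marks their littermates. The promoter of the transgene, the age of the mice, and whether the samples of a group came from separate animals are not given in the sources used here, so the p-values measure the spread between these samples only. The text of the study also names the organoids by the genotypes MG53;Lgr5 and Lgr5. An entry for Trim72 was present in each MG53-TG sample and in no WT sample.

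Of these products, the lysozymes cleave the cell wall of bacteria. Mouse lysozyme P (Lyz1) is the granule lysozyme of Paneth cells, and its tandem neighbour lysozyme M (Lyz2) is best known from macrophages and other myeloid cells. Matrilysin (Mmp7) is a secreted metalloprotease that activates the defensin precursors in mouse Paneth cells. Intelectin 1 (Itln1) is a lectin that binds microbial sugars, and angiogenin 4 (Ang4) is an antimicrobial member of the RNase A family. Both are also made by goblet cells. Wnt3 is a ligand that Paneth cells present to the neighbouring stem cells, which depend on it in organoid culture.

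Lyz1 and Lyz2 are copies with near-identical coding sequences, and the precision of both values rests on the bases that tell them apart. Over a coding sequence of 447 bases, 425 bases (95.1%) were identical. Of 1214 windows of 50 bases in the Lyz1 transcript, 195 (16.1%) were also present in the Lyz2 transcript, and of 1164 windows of 100 bases, 24 (2.06%) were. Exon 2 of both genes is shown because it is coding throughout and holds both shared stretches and distinguishing positions. The sequences are from the GENCODE vM21 transcripts (GRCm38, minus strand, 5′ to 3′), Lyz1 at chr10:117291029-117291193 and Lyz2 at chr10:117280641-117280805, and capitals mark the 6 of 165 bases that differ.
Lyz1 exon 2: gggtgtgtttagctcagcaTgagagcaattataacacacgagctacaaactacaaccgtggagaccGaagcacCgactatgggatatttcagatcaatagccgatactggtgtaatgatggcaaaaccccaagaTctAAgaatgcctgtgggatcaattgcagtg
Lyz2 exon 2: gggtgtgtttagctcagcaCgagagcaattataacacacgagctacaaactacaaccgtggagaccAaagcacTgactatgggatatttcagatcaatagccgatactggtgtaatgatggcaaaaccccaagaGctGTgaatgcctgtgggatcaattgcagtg

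The 4 members that could be tested were all lower in the MG53-TG organoids. Mmp7 fell 11.0-fold, Itln1 and Wnt3 2.63-fold each and Lyz1 1.44-fold, as ratios of the mean FPKM (fragments scaled to transcript length and to all mapped fragments, the deposited unit). Each had a BH-adjusted p of at most 0.05 on log2(FPKM + 1), and in each of the 4 every MG53-TG sample was below every WT sample. This has to be read against the whole transcriptome. Of 11013 genes tested, all averaging 0.5 FPKM or more, 44.5% passed the threshold, 28.8% lower and 15.7% higher, and 27.8% had every MG53-TG sample below every WT sample. The median log2 fold change of the 4 members was -1.03, and that of all genes tested was -0.16. Without MG53-TG samples 3 and 4, with median-of-ratios scaling, or with the sample number as a block, 3 of the 4 members passed and Lyz1 did not. In all, Lyz1 passed in 16 of 24 alternative fits. Lyz2 was under this filter, was higher in every MG53-TG sample, and had a mean below 0.2 FPKM in both groups. Ang4 had no entry in any sample and is not analysed here. In bulk samples such as these, fewer cells of a type and less RNA per cell cannot be told apart.

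**Figure D1:**
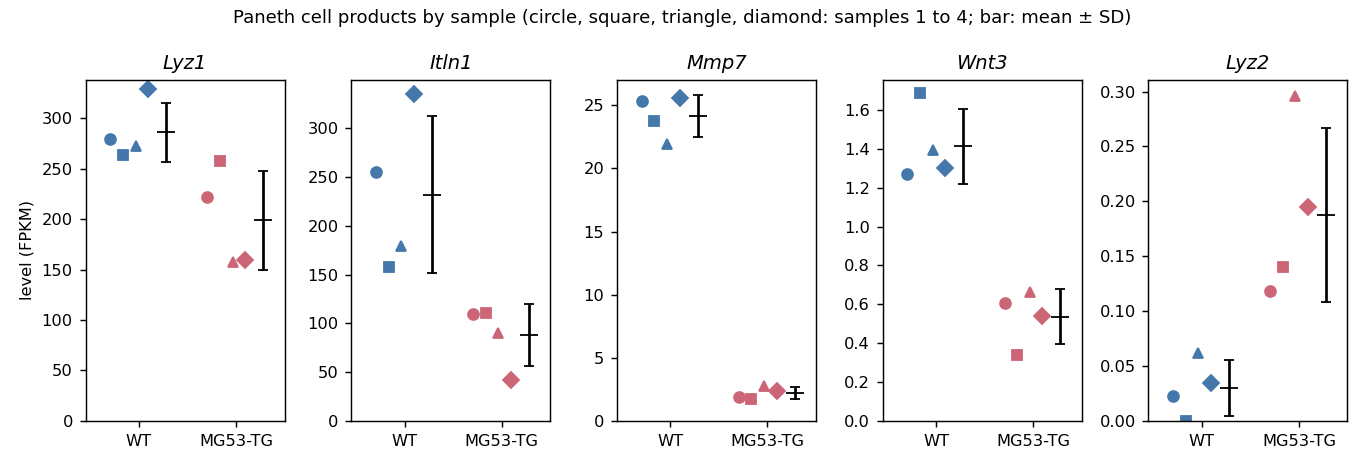
FPKM of Lyz1, Itln1, Mmp7, Wnt3 and Lyz2 in each sample, with one marker shape per sample number and the mean ± SD beside each group (n = 4; the y axes differ). The groups do not overlap in any panel, and MG53-TG samples lie below WT samples except for Lyz2, where WT sample 2 had no entry and is drawn at 0.

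The granule lysozyme Lyz1 (ENSMUSG00000069515, GRCm38 chr10:117287797-117292868, minus strand, 4 exons) had 1 start and 1 end event, both at annotated exon boundaries and equal in every sample. Its level was 279, 263, 273 and 329 FPKM in WT samples 1 to 4. It was 222, 258, 158 and 159 FPKM in samples 1 to 4 of the MG53-TG group. The highest MG53-TG sample lay just below the lowest WT sample, and MG53-TG samples 3 and 4 lay well below samples 1 and 2. The coefficient of variation was 10.3% among the WT samples and 24.7% among the MG53-TG samples. The log2 fold change was -0.55 (SE 0.17, limma BH-adjusted p = 0.0278). This call was lost under median-of-ratios scaling (-0.36, limma BH-adjusted p = 0.0584) and with the sample number as a block (-0.55, limma BH-adjusted p = 0.0542). It was also lost without MG53-TG samples 3 and 4 (-0.25, limma BH-adjusted p = 0.134), and the log2 fold change was -0.84 without samples 1 and 2 (limma BH-adjusted p = 7.49e-04). Leaving out single samples moved it between -0.68 and -0.45, and it did not pass without WT sample 1, 3 or 4 or without MG53-TG sample 3 or 4 (limma BH-adjusted p = 0.0557, 0.0512, 0.0750, 0.0712 and 0.0672). Lyz1 was above 98.8% of the genes tested in WT organoids and 97.9% in MG53-TG organoids.

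Lyz2 (ENSMUSG00000069516, chr10:117277331-117282321, minus strand, 4 exons) was listed at 0.0225, 0.0616 and 0.0349 FPKM in WT samples 1, 3 and 4 and had no entry in WT sample 2. The values were 0.119, 0.140, 0.296 and 0.195 FPKM in samples 1 to 4 of the MG53-TG group. All 4 MG53-TG values were above all WT values, opposite to Lyz1, and all were far below the filter. In the fit without the filter its log2 fold change was 0.20 (SE 0.055, limma BH-adjusted p = 0.0236), and it was 1.13 with a pseudocount of 0.1 in place of 1. Lyz2 amounted to 0.00804%, 0.0226% and 0.0106% of Lyz1 in WT samples 1, 3 and 4. In MG53-TG samples 1 to 4 this share was 0.0535%, 0.0542%, 0.188% and 0.123%. The sum of both genes gave the same result as Lyz1 alone (log2 fold change -0.55, limma BH-adjusted p = 0.0279). How reads common to both copies were divided is not given in the sources used here, so the low Lyz2 value is uncertain.

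Lyz2 was read beside 14 macrophage markers, since lysozyme M is abundant in macrophages. Of these, 9 had no entry in any sample, among them Adgre1, Csf1r, Cd14 and Itgam. The pan-leukocyte gene Ptprc was listed in MG53-TG sample 2 alone, at 0.000508 FPKM. Of the 2 that could be tested, the lysosomal protein Cd68 fell from 6.14 ± 2.37 to 0.935 ± 0.340 FPKM (± SD of 4 samples each; log2 fold change -1.84, limma BH-adjusted p = 5.64e-04), and Mrc1 did not pass (limma BH-adjusted p = 0.145). Thus 1 of the 2 was lower, where 28.8% of all genes tested were lower. With end events only, or with annotated boundaries only, 2 macrophage markers were lower. Summed over the list, the level was 4.60 to 10.8 FPKM in WT and 1.31 to 2.42 FPKM in MG53-TG organoids, opposite in direction to Lyz2. Apart from Cd68 and Mrc1, the macrophage markers were at or near 0 in both groups. The other 8 lysozyme family genes looked for had no entry in any sample.

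Matrilysin, Mmp7 (ENSMUSG00000018623, chr9:7692090-7699585, plus strand, 6 exons), changed most among the members. Its promoter is shown for this reason, as the 250 bases before the start site in RefSeq (GRCm38.p6, chr9:7691840-7692089, plus strand), with the 2 matches to TATAAA in capitals.
Mmp7 promoter: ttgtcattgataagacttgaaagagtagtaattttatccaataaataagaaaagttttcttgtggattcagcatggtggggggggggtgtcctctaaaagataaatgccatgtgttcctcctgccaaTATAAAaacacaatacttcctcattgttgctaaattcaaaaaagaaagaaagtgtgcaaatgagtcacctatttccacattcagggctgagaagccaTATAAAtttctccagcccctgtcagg
The matches began 123 and 26 bases before the start. The letters TATAAA were present on either strand in 12.4% of 32851 windows of this length in RefSeq. No other member had them in the window before its first listed start, and none had CTTTGA there, the core letters bound by the Wnt effectors of the TCF family, which 13.8% of the windows held. The window before the second listed Mmp7 start, which lies within the annotated gene, held CTTTGA on the opposite strand, 246 bases before that start. These are matches of letters only.

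Mmp7 was at 25.3, 23.8, 21.9 and 25.6 FPKM in WT samples 1 to 4, a coefficient of variation of 6.94%. In MG53-TG samples 1 to 4 it was at 1.88, 1.76, 2.74 and 2.39 FPKM. The values of each group lay close together, and the gap between the groups was many times the spread within either. The mean fell from 24.1 ± 1.68 to 2.19 ± 0.454 FPKM (SD, n = 4 each), with a log2 fold change of -2.99 (SE 0.13, limma BH-adjusted p = 1.06e-06). By log2 fold change it was the 36th lowest of the 11013 genes tested. In level it moved from above 80.3% of these genes in WT to above 19.6% in the MG53-TG organoids. In contrast to Lyz1, MG53-TG samples 3 and 4 were above samples 1 and 2, and Mmp7 passed in all 23 alternative fits, with log2 fold changes from -3.42 to -2.82.

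Mmp7 was compared with 26 other matrix metalloproteases and their inhibitors, of which 11 had an entry and 5 could be tested. Of these, 2 were lower, 1 was higher and 2 did not pass, with a median log2 fold change of -0.15 (over all genes, 28.8% were lower and 15.7% higher). The membrane-anchored collagenase Mmp14 fell from 14.1 ± 1.94 to 2.96 ± 1.47 FPKM (log2 fold change -2.0004, limma BH-adjusted p = 4.68e-04). It was at 4.09, 4.37, 1.73 and 1.64 FPKM in samples 1 to 4 of the MG53-TG group, so that samples 3 and 4 were the lower ones. Another membrane-type member, Mmp15, fell from 9.87 ± 0.560 to 3.98 ± 1.03 FPKM (log2 fold change -1.15, limma BH-adjusted p = 5.69e-04). The secreted protease Mmp28 rose from 0.174 ± 0.245 to 1.65 ± 0.484 FPKM (log2 fold change 1.18, limma BH-adjusted p = 0.00151; SD, n = 4 each for all 3 genes). The inhibitor Timp2 was at 0.580 and 0.422 FPKM and did not pass (limma BH-adjusted p = 0.357). The inhibitors Timp3, Timp4 and Reck were under the filter. Timp3 was at 0.895 ± 0.121 FPKM in WT and had no MG53-TG value above 0. In the fit without the filter its log2 fold change was -0.92 (limma BH-adjusted p = 3.37e-05). Timp4 and Reck did not pass in that fit (limma BH-adjusted p = 0.425 for both). Without MG53-TG sample 1, or without samples 1 and 2, 3 genes of this list were lower and 2 higher.

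Itln1 (ENSMUSG00000038209, chr1:171518122-171535294, minus strand, 8 exons) was the second most abundant member and the most variable of the 4 over the filter. Its level was 255, 158, 179 and 335 FPKM in WT samples 1 to 4. In MG53-TG samples 1 to 4 it was 109, 110, 90.6 and 42.1 FPKM. No MG53-TG sample reached the lowest WT sample, and MG53-TG sample 4 was at less than any other sample. The mean fell from 232 ± 80.4 to 88.0 ± 31.9 FPKM (SD, n = 4 each), with a log2 fold change of -1.42 (SE 0.34, limma BH-adjusted p = 0.0101). The coefficients of variation were 34.7% and 36.3%. Without any single sample the log2 fold change stayed between -1.58 and -1.10, with limma BH-adjusted p of at most 0.0303.

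The Itln1 entries also gave 2 transcript features. Start events with an extended first exon that GENCODE does not annotate were listed in MG53-TG samples 3 and 4 only, at 10.3 and 4.20 FPKM, which was 11.4% and 9.99% of the start FPKM of the gene. With annotated boundaries only, Itln1 still passed. Exon 5 (chr1:171531034-171531192, 159 bases) was skipped in 1.73%, 0.367%, 2.44% and 1.87% of the FPKM in WT samples 1 to 4. In the MG53-TG samples the share was 0.291%, 0.832%, 0.410% and 2.01%. The groups overlapped, and the exon was included in nearly all Itln1 transcripts of every sample.

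Because goblet cells also make Itln1, it was read beside 10 goblet cell markers, of which 8 could be tested. Of these, 6 were lower, 0 were higher and 2 did not pass, with a median log2 fold change of -1.47, beside 28.8% lower among all genes tested. The disulfide isomerase Agr2, which assists mucin folding, fell from 88.1 ± 12.8 to 13.6 ± 4.94 FPKM (log2 fold change -2.66, limma BH-adjusted p = 6.81e-05). The gel-forming mucin Muc2 fell from 25.3 ± 3.71 to 8.94 ± 4.69 FPKM (log2 fold change -1.55, limma BH-adjusted p = 0.00891). Fcgbp, which binds mucus, and Tpsg1 had log2 fold changes of -1.55 and -1.48 (limma BH-adjusted p = 4.20e-04 and 0.00248). Muc2 was at 3.00, 7.86, 10.9 and 14.0 FPKM in samples 1 to 4 of the MG53-TG group, whereas Itln1 was lowest in samples 3 and 4. Summed over the list, the level was 782 to 896 FPKM in WT and 213 to 558 FPKM in MG53-TG organoids. Zg16, a lectin of the mucus, did not pass and went the other way, with 5.25, 9.88, 10.4 and 11.2 FPKM in WT samples 1 to 4 and 7.57, 11.8, 53.0 and 62.2 FPKM in samples 1 to 4 of the MG53-TG group (log2 fold change 1.33, limma BH-adjusted p = 0.119). Under the replicate block, and without MG53-TG sample 1, 1 goblet marker was higher past the threshold. The part of goblet cells in the Itln1 difference was not tested.

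For Ang4 (ENSMUSG00000060615, chr14:51763878-51773590, minus strand, 2 exons) no row was named for the gene and none overlapped its span. Of 12 other genes of the angiogenin and RNase A family and its inhibitor, 2 had an entry, and Ang3 could not be matched to an identifier. Rnase4, a secreted ribonuclease, rose from 39.1 ± 5.84 to 56.3 ± 4.90 FPKM (± SD of 4 samples each; log2 fold change 0.52, limma BH-adjusted p = 0.00851). The cytosolic ribonuclease inhibitor Rnh1 was at 40.4 and 40.3 FPKM (limma BH-adjusted p = 0.995).

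The stem cell ligand Wnt3 (ENSMUSG00000000125, chr11:103774150-103817957, plus strand, 5 exons) was expressed at a low level. It was taken from its end event, since the start event had no entry in MG53-TG sample 1. Wnt3 was at 1.27, 1.69, 1.39 and 1.30 FPKM in WT samples 1 to 4. MG53-TG samples 1 to 4 were at 0.605, 0.337, 0.666 and 0.540 FPKM, all below the WT samples. The mean fell from 1.41 ± 0.191 to 0.537 ± 0.143 FPKM (SD, n = 4 each). The log2 fold change was -0.65 on the log2(FPKM + 1) scale (SE 0.13, limma BH-adjusted p = 0.00353), which understates the change of a low gene, and it was -1.27 with a pseudocount of 0.1. In the WT its level was above 11.8% of the genes tested, and in the MG53-TG organoids above 3.29%.

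Among the Wnt ligands looked for, Wnt3 alone was over the filter. Of 18 other Wnt genes, 3 had an entry, Wnt4, Wnt5b and Wnt10a, and all were under the filter. In the fit without it, Wnt5b had no WT value above 0 and MG53-TG values of 0.37999 (sample 1), 0.648 (sample 3) and 0.819 FPKM (sample 4), with sample 2 missing (log2 fold change 0.68, limma BH-adjusted p = 0.00176), opposite to Wnt3. Wnt4 and Wnt10a did not pass in that fit (limma BH-adjusted p = 0.204 and 0.426). Of 28 genes of Wnt secretion, receptors and extracellular regulators, 13 could be tested, of which 3 were lower and 2 higher, with a median log2 fold change of -0.25. Among all genes tested 44.5% were called, 28.8% lower and 15.7% higher, and a difference of this list from these shares was not tested. The co-receptor Lrp5 and the R-spondin receptor Lgr4 fell by 0.95 and 0.71 on the log2 scale (limma BH-adjusted p = 7.43e-04 and 7.61e-04), and the receptor Ryk by 0.46 (limma BH-adjusted p = 0.0116). Notum, an enzyme that inactivates Wnt ligands, had no WT value above 0 and was at 2.09, 1.895, 3.39 and 2.89 FPKM in samples 1 to 4 of the MG53-TG group (limma BH-adjusted p = 4.72e-05). The receptor Fzd4 had a log2 fold change of 0.51 (limma BH-adjusted p = 0.0155). For the Wnt carrier Wls and the acyltransferase Porcn, which Wnt secretion needs, the difference did not pass (limma BH-adjusted p = 0.378 and 0.505). Without MG53-TG samples 1 and 2, 6 were lower and 2 higher, and without samples 3 and 4, 2 were lower and 1 higher.

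The order of the mean levels, which FPKM gives per transcript length, was Lyz1, Itln1, Mmp7, Wnt3 and Lyz2 in both groups. In the WT, Lyz1 was above Itln1 in samples 1 to 3 and just below it in sample 4, with a ratio of Lyz1 to Itln1 between 0.983 and 1.67. A difference between these 2 genes within the WT was not tested. In every MG53-TG sample Lyz1 was above Itln1, and the other neighbours kept this order in every sample. Ratios within a sample do not depend on the scaling between samples, and 6 ratios of the 4 members over the filter were compared by two-sided exact permutation tests over 70 relabellings, whose smallest p is 0.0286. The ratios were chosen after the values had been seen. Lyz1 to Mmp7 was 11.0, 11.1, 12.4 and 12.9 in WT samples 1 to 4 and 118, 146, 57.6 and 66.6 in MG53-TG samples 1 to 4. It thus rose 7.62-fold (exact permutation p = 0.0286, 0.0429 adjusted over 6 ratios). Mmp7 also fell relative to Itln1 and to Wnt3, 4.14-fold each, without overlap of the groups (exact permutation p = 0.0286, adjusted 0.0429, for both). Lyz1 to Itln1 rose 1.84-fold, with a range of 0.983 to 1.67 for WT and 1.74 to 3.79 for MG53-TG (exact permutation p = 0.0286, adjusted 0.0429). Lyz1 to Wnt3 ranged over 156 to 253 for WT and 237 to 764 for MG53-TG, which overlapped (exact permutation p = 0.0571, adjusted 0.0686). Itln1 to Wnt3 differed by 0.0011 on the log2 scale (exact permutation p = 1), within a wide spread of 93.5 to 258 for WT and 77.9 to 327 for MG53-TG.

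**Figure D2:**
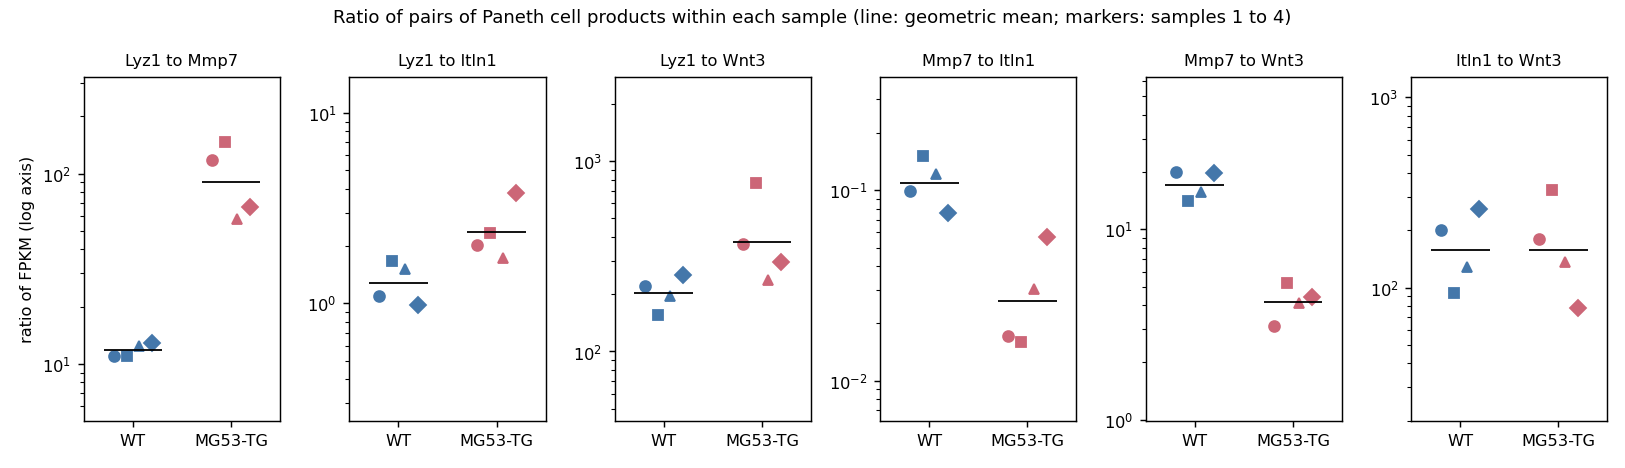
Ratio of FPKM of 6 pairs of members within each sample, on log axes that each span the same number of folds (lines: geometric means; n = 4 per group). Lyz1 to Mmp7 is 11.0 to 12.9 for WT and 57.6 to 146 for MG53-TG, whereas Itln1 to Wnt3 overlaps.

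The deviations of the members from their group means were compared. Over the 8 samples, the deviations from the group means of log2(FPKM + 1) had a Pearson correlation of 0.72 for Lyz1 and Itln1. They had -0.70 for Lyz1 and Mmp7 and -0.66 for Lyz1 and Wnt3. Lyz1 and Mmp7 ran opposite among the MG53-TG samples only, and WT sample 4 was the highest WT sample for both. The other 3 pairs lay between -0.41 and 0.38. The 8 points share libraries and scaling, and the values are a description. Each member over the filter was also compared with 10630 other genes for the likeness of its pattern over the 8 samples. The most alike were Tiam1, Abhd8 and Mphosph9 for Lyz1 (Pearson r of 0.993, 0.990 and 0.988, and of 0.984, 0.977 and 0.971 for the deviations). For Itln1 they were Nup107, Opn3 and Coq5 (r of 0.982, 0.978 and 0.974, and 0.973, 0.935 and 0.949 for the deviations). Sqle and Igf1r were most like Mmp7 (r of 0.997 and 0.996), but less so in the deviations (0.551 and 0.320). Arfgef1, Parn and Vcl were most like Wnt3 (r of 0.992, 0.991 and 0.982, and 0.926, 0.922 and 0.810 for the deviations). For 287 genes r with Lyz1 was above 0.95, for 436 with Mmp7, for 94 with Wnt3 and for 37 with Itln1, so none of these likenesses is particular to the genes named.

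**Figure D3:**
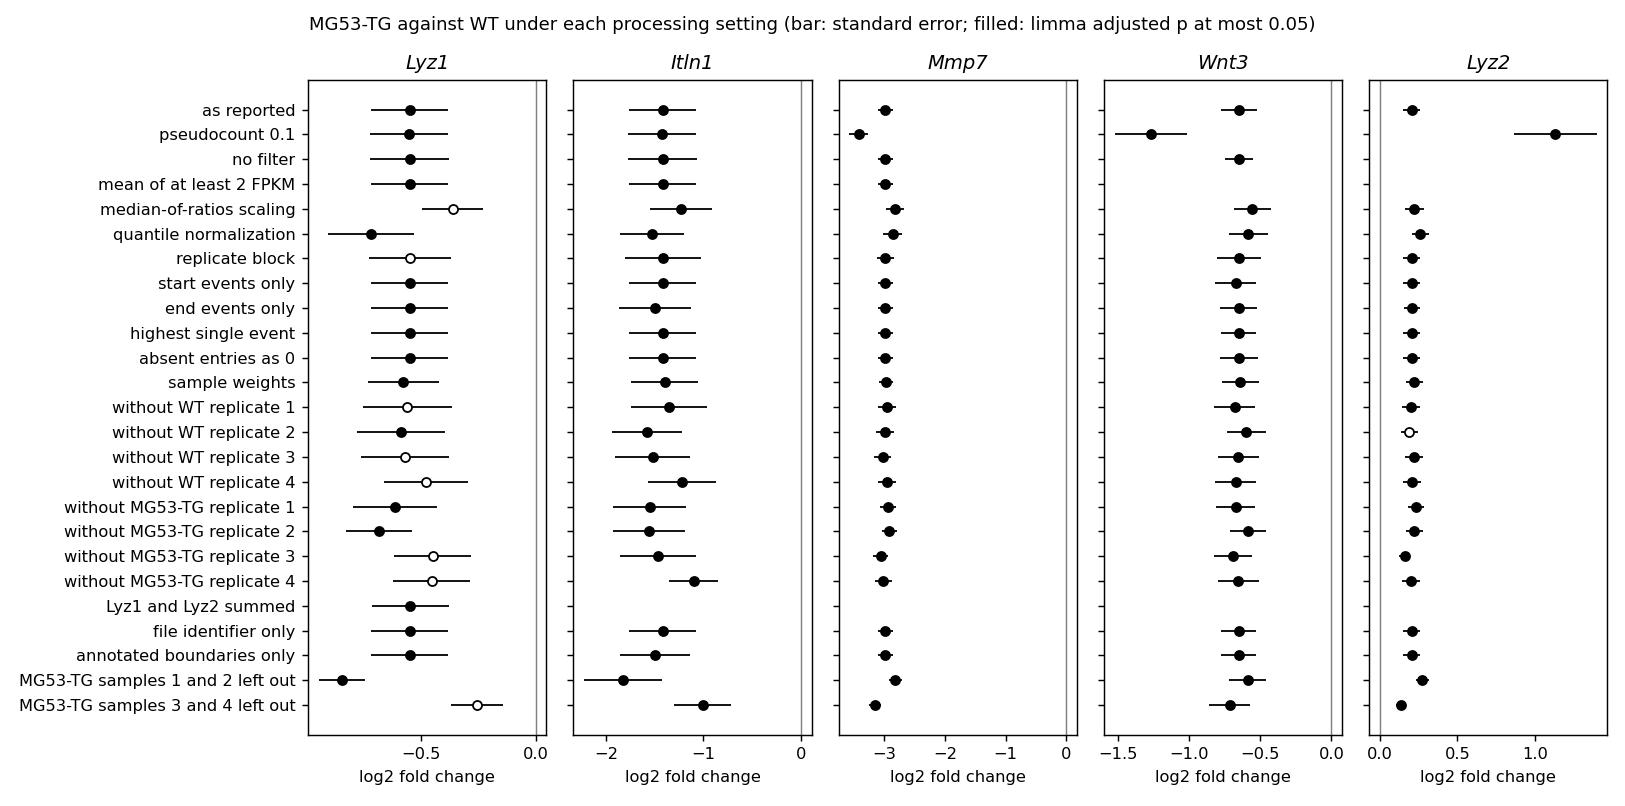
Log2 fold change of each member, MG53-TG against WT, under each processing setting (bars: standard error; filled: limma BH-adjusted p at most 0.05; the x axes differ). Mmp7, Itln1 and Wnt3 are filled throughout, and Lyz1 passes in 16 of 24 alternatives.

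The label of Paneth cell products was checked against other genes of this cell type. Of 6 further Paneth markers, 4 could be tested and 1 was lower, the secreted phospholipase Pla2g2a, from 2.18 ± 0.833 to 0.324 ± 0.266 FPKM (± SD of 4 samples each; log2 fold change -1.24, limma BH-adjusted p = 0.00302). Nupr1, Habp2 and Kit did not pass (limma BH-adjusted p = 0.353, 0.727 and 0.0701). The median log2 fold change of this list was -0.34, and the 1 of 4 lower is close to the 28.8% of all genes. Of these markers 2 were lower without MG53-TG samples 1 and 2, without WT sample 3, and with start events only, end events only or the highest single event. Without MG53-TG samples 3 and 4, 1 was lower and 1 higher, and with a mean of at least 2 FPKM none passed.

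Of 8 regulators of the Paneth lineage, 6 could be tested, of which 4 were lower and 0 higher, with a median log2 fold change of -0.68, where 28.8% of all genes tested were lower. Atoh1 had no entry in any sample, and Gfi1 was under the filter. Fzd5 was above 0 in MG53-TG sample 3 only, at 7.95 FPKM, and did not pass (limma BH-adjusted p = 0.360). The transcription factor Sox9, which Paneth cells require, was at 16.6, 14.7, 16.5 and 15.5 FPKM in WT samples 1 to 4 and at 10.4, 10.4, 3.59 and 2.70 FPKM in samples 1 to 4 of the MG53-TG group. MG53-TG samples 3 and 4 were the lower ones, as for Lyz1 and Itln1 (log2 fold change -1.29, limma BH-adjusted p = 0.0201). Bhlha15 (MIST1), a factor of secretory cell maturation, fell from 2.36 ± 0.493 to 0.318 ± 0.384 FPKM (log2 fold change -1.38, limma BH-adjusted p = 0.00139). Spdef, a factor of goblet and Paneth maturation, fell from 1.92 ± 0.435 to 0.586 ± 0.311 FPKM (± SD of 4 samples each; log2 fold change -0.89, limma BH-adjusted p = 0.00469), and in it MG53-TG samples 3 and 4 were the higher ones. Tcf7l2, the TCF4 effector of Wnt signalling, had a log2 fold change of -0.47 (limma BH-adjusted p = 0.0237). The secretory regulator Xbp1 was at 73.8 ± 12.8 and 75.0 ± 16.7 FPKM (SD, n = 4 each; limma BH-adjusted p = 0.953). Without MG53-TG sample 3, or with a mean of at least 2 FPKM, 2 of these regulators were lower.

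Of 10 genes of Paneth cell secretion and autophagy, 8 could be tested, of which 4 were lower and 0 higher, with a median log2 fold change of -0.26. They were the endoplasmic reticulum chaperone Hspa5 (-0.57, limma BH-adjusted p = 0.00990), the autophagy enzyme Atg7 (-0.51, 0.00953), the epithelial stress sensor Ern2 (-0.63, 0.0431) and the kinase Ripk2 (-0.46, 0.0230, with no value in MG53-TG sample 4), all as log2 fold changes. Atg16l1, a core autophagy gene, was at 8.06 and 8.07 FPKM (limma BH-adjusted p = 0.978). Of all genes tested 44.5% were called and 28.8% were lower, and a difference of this list from these shares was not tested. Under median-of-ratios scaling 1 was lower and 1 higher, and under quantile normalization 3 were lower and 1 higher. Only 2 were lower, and 0 higher, under the replicate block, with a mean of at least 2 FPKM, without WT sample 3 or MG53-TG sample 3, and without MG53-TG samples 1 and 2 or 3 and 4.

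Other niche signals of Paneth cells moved in both directions. Of 7 such genes, 5 could be tested, of which 2 were lower and 2 higher, against 28.8% lower and 15.7% higher over all genes. The Paneth surface marker Cd24a fell from 198 ± 9.20 to 86.9 ± 31.1 FPKM (log2 fold change -1.25, limma BH-adjusted p = 0.00270), and the Notch ligand Dll4 from 2.39 ± 0.267 to 1.01 ± 0.269 FPKM (log2 fold change -0.76, limma BH-adjusted p = 0.00240; SD, n = 4 each). The Notch ligand Dll1 rose, with a log2 fold change of 0.93 (limma BH-adjusted p = 0.00134). Bst1, a cyclic ADP-ribose producing enzyme of the niche, was at 0.616, 0.426, 0.611 and 0.507 FPKM in WT samples 1 to 4. It was at 6.40, 5.00, 19.8 and 19.8 FPKM in samples 1 to 4 of the MG53-TG group (log2 fold change 2.94, limma BH-adjusted p = 6.83e-04). The growth factor Tgfa did not pass (limma BH-adjusted p = 0.09002).

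**Figure D4:**
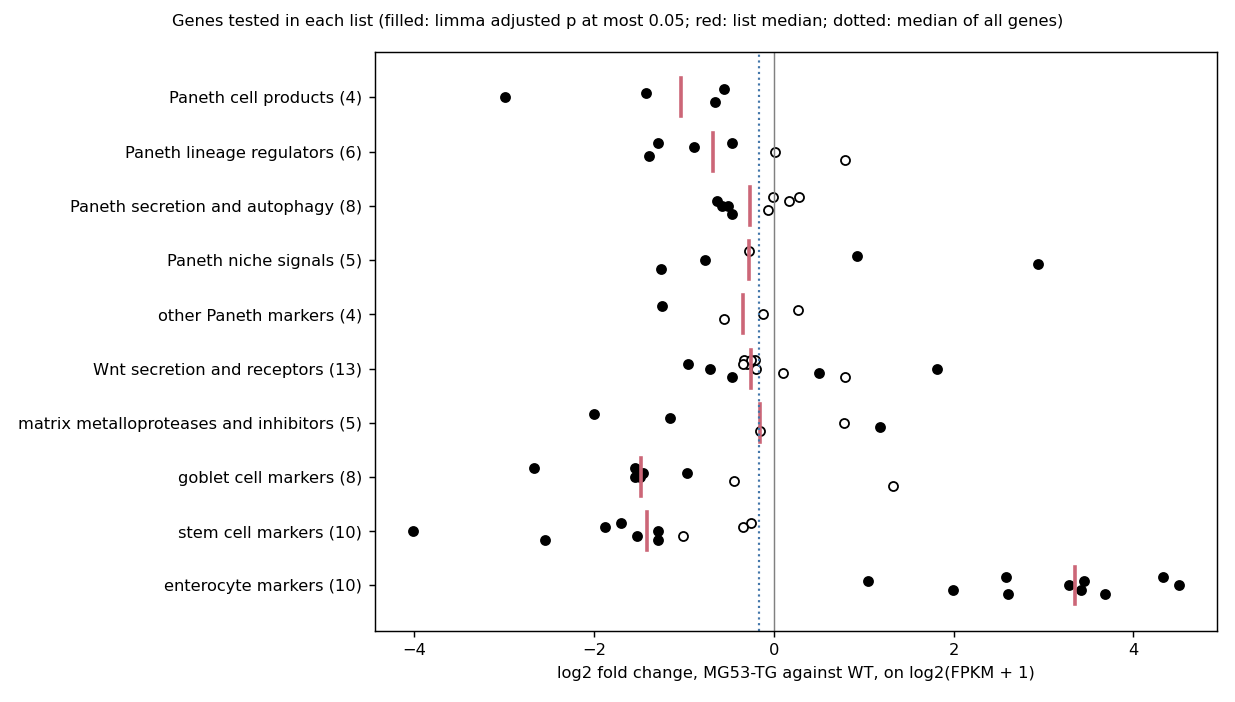
Log2 fold change on log2(FPKM + 1), MG53-TG against WT, of the genes tested in each list, with their number in brackets (filled: limma BH-adjusted p at most 0.05; red line: list median; dotted line: median of all genes, -0.16). The 4 Paneth cell products are all below 0, whereas the niche signals lie on both sides.

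Markers of other epithelial cells moved beside the members, and are set against 28.8% lower and 15.7% higher among all genes tested. All 10 enterocyte markers tested were higher, with a median log2 fold change of 3.35 and a summed level of 962 to 1134 FPKM in WT and 11486 to 12540 FPKM in MG53-TG organoids. Of the stem cell markers, 7 of 10 were lower and 0 higher, with a median of -1.40 and a summed level of 541 to 725 FPKM in WT and 72.2 to 322 FPKM in MG53-TG organoids. Of 10 mesenchyme markers, 3 could be tested and 2 were higher, Col1a2 and Col3a1. Neither had a WT value above 0, and both had no entry in MG53-TG sample 1, which was treated as missing. With absent entries as 0, with start events only, with a mean of at least 2 FPKM, or without MG53-TG sample 2, 3 or 4, 0 were higher. The part of these other cell types in the differences of the Paneth cell products was not tested.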

How the data were processed

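FPKM values from 4 WT and 4 MG53-TG crypt organoid samples were used. Per the labels, reads were trimmed with cutadapt (1.9.1) and mapped with HISAT2 (2.0.1), and HTSeq (0.6.1) and DESeq2 are named in the submitters' processing notes. The authors deposited FPKM per transcript event (start, end, skipped exon and others). The tool that made the events is not given in the sources used here. FPKM values are estimates without read counts, so the depth is unknown and no count test or interval was possible. Summed over start events, FPKM was 269837 to 273797 in the WT and 269094 to 284330 in the MG53-TG samples.

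The level of a gene was the summed FPKM of its transcription starts, or of its ends where these averaged more. Of start and end events, 85.3% lay at a GENCODE vM21 boundary of the gene named in the file, 10.1% at no annotated boundary and 4.10% at one of another gene, to which they were moved. An absent entry was set to missing where the median of the other samples in the group reached 0.5 FPKM, and else to 0. Groups were compared with limma 3.58.1 (R 4.3.3, lmFit and eBayes with trend) on log2(FPKM + 1) for the 11013 genes averaging 0.5 FPKM or more. P-values were adjusted by Benjamini-Hochberg over these genes, and 0.05 was the threshold. Lyz2 came from the fit without this filter. Single ratios were compared by exact permutation over 70 relabellings (Python 3.11.15, numpy 2.4.6). The fit was also run on simulated data with independent genes, few of them changed. This differs from the present data, so that run checks the code only. The members and lists were chosen with earlier results of these data known. All 6 members, up to 4 genes past the threshold per list and the 3 genes most like each member were named, and a few further genes of a list (such as Mrc1, Timp2, Rnh1, Wls, Porcn, Xbp1, Atg16l1, Zg16, Nupr1, Habp2, Kit and Tgfa) after their values were seen. One gene that this rule names is not reported here. Alternatives were another pseudocount, other filters and scalings, a replicate block, sample weights, other event choices and leaving out samples. The pairs of MG53-TG samples left out, the 2 other ways to assign events and the ratios were added after seeing the data. Promoter windows are from RefSeq (GRCm38.p6).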

Additional observations from a re-analysis of the deposited data

How the results depend on the processing

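Mmp7, Itln1 and Wnt3 kept their direction and their call in all alternatives run, 23, 23 and 22 in number (log2 fold changes of -3.42 to -2.82, -1.83 to -1.01 and -1.27 to -0.56). For Wnt3 no value was possible with a mean of at least 2 FPKM, which left it out. Lyz1 kept its direction in all 24 alternatives and its call in 16. It did not pass with median-of-ratios scaling (-0.36), with a replicate block (-0.55, limma BH-adjusted p = 0.0542) or without MG53-TG samples 3 and 4 (-0.25), and the cause was not tested. Leaving out single samples gave -0.68 to -0.45 for Lyz1 and 0.161 to 0.231 for Lyz2, which did not pass without WT sample 2 (limma BH-adjusted p = 0.0507). Median-of-ratios scaling moved the median over all genes from -0.16 to -0.0078 (log2 fold change), and the calls from 3172 lower and 1726 higher to 2220 lower and 2247 higher. The count of genes past the threshold was 3640 to 5956 over all alternatives, against 4898. Samples with the same replicate number did not deviate together (correlations of 0.0855, -0.0060, 0.0951 and -0.061). These correlations do not settle whether the samples were paired by litter or culture. The paper names a paired t test for the marker genes of its organoid transcriptomes. Under the replicate block the count was 4440 genes, and among the members it changed the call of Lyz1 only. The depth is unknown, so the precision of low values such as those of Wnt3 and Lyz2 cannot be given.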

Other observations

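Of the 250 bases before the RefSeq start sites of Lyz1 and Lyz2, the part nearest the start was compared without gaps. Identity over the rest of the window was not computed. Of the 130 bases nearest the start, 120 (92.3%) were identical, and of the nearest 60, 59 were, while the mean FPKM of the genes was 286 and 0.0297 in the WT organoids and 199 and 0.187 in the MG53-TG organoids. The letters AGGTCA, the half-site bound by many nuclear receptors, began 133 bases before the Lyz1 start and were absent from the Lyz2 window, and 14.0% of all RefSeq windows of this length held them on either strand. These are matches of letters, with no measured binding. No member's value in any of the 10 groups of 4 samples stood apart from the other 3 by Dixon's test.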
